A study of Mus musculus with 39 samples.

Results

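The genes described here are 34 genes of glycolysis and of the response to low oxygen, out of 43430 Ensembl genes counted in sorted mouse lung cells. They were taken by symbol from a list of the pathway that uses no measured value as a criterion but was drawn up with earlier results of these data known, and all 34 were found. Of these, 3 import glucose, 3 are hexokinases, 6 act at the isomerase and phosphofructokinase steps, 9 are enzymes of lower glycolysis, 5 handle lactate and pyruvate, 4 sense oxygen and 4 are other hypoxia-responsive genes. All 34 passed the filter on low counts over the 39 libraries, in which 13587 genes were tested. In the 19 macrophage libraries 33 of them were tested and Egln3 was not, and in the 20 monocyte libraries 33 were tested and Eno2 was not.

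The study measured polyA RNA in cells sorted from lungs of C57BL/6J mice, which the labels separate by cell type, age, ISRIB and bleomycin. ISRIB is a small molecule that reverses the block on protein synthesis imposed by the integrated stress response, and bleomycin injures the lung and is used to produce fibrosis. The 4 macrophage groups were Siglec F-low alveolar macrophages of bleomycin-treated mice, which the series text calls monocyte-derived: young with saline (n = 5), young with ISRIB (n = 4), old with saline (n = 5) and old with ISRIB (n = 5). The 4 monocyte groups were sorted lung monocytes of naive mice that had no bleomycin: young with saline, young with ISRIB, old with saline and old with ISRIB (n = 5 each). Young mice are given as 8 to 12 weeks in the sample labels and 3 to 5 months in the series text, and old mice as over 18 months and 18 to 24 months. The series text places the start of daily ISRIB or vehicle at day 7 and collection at day 21 after bleomycin, and it does not say when the naive mice were dosed. Because each cell type comes with only one bleomycin status, effects of the cell type and of bleomycin cannot be told apart. No label says that libraries of a group came from separate mice, so p-values measure the spread between these libraries.

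Glycolysis splits glucose into pyruvate in the cytosol, and lactate dehydrogenase with the monocarboxylate transporters then lets cells discard the carbon as lactate. Hypoxia-inducible factor (HIF) is a transcription factor whose alpha subunit is hydroxylated by EGLN enzymes and destroyed through VHL while oxygen is plentiful, and it raises many glycolytic genes when oxygen falls. Inflammatory macrophages are known to rely on glycolysis and lactate export, whereas resident alveolar macrophages lean on mitochondrial respiration. Alveolar macrophages low in Siglec F after injury are known to come largely from monocytes.

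HIF binds a core of ACGTG or GCGTG, and the stretch before the gene start was searched for both on both strands. A core was present in the 250 bases upstream of a listed start in 27 of 32 members with a listed promoter (84.4%), against 41.5% of 27025 genes. The ACGTG core alone was present in 17 of the 32 (53.1%), against 18.5% of genes. A gene with several listed promoters counted if any of them held the core. Per promoter, either core was in 77.8% of 45 listed promoters of members and in 38.6% of all 32851. The ACGTG core was in 44.4% and 16.6%. Listed promoters of the members had a median GC content of 61.6% and all listed promoters 52.4%, and both cores contain the pair CG. A match is a description of the letters and not of binding. The 4 stretches below (RefSeq, GRCm38.p6, plus strand, no base in an annotated exon) are shown because Eno1 is the member called with ISRIB in macrophages, Ldha and Pgk1 have the same direction at both ages without being called, and Slc16a1 and Ldha separated the cell types. They lie at chr7:46845554-46845803, chr4:150236458-150236707, chrX:106186850-106187099 and chr3:104638414-104638663, for Ldha, Eno1, Pgk1 and Slc16a1 in turn. The RefSeq start used for Ldha lies inside the longer Ensembl gene span, and it is the first of 2 listed Ldha starts. Capitals mark each core, read on either strand, and the palindrome CACGTG counts on both strands.
Ldha: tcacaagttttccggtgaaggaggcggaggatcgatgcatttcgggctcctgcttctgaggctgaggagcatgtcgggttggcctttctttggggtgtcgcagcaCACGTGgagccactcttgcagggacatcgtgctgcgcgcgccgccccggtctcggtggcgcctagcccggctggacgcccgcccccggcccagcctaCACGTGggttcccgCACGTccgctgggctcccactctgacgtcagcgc
Eno1: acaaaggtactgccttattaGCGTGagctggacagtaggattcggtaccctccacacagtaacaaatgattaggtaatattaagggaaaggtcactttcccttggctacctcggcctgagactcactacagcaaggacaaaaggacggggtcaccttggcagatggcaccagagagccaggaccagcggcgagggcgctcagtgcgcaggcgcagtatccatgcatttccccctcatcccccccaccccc
Pgk1: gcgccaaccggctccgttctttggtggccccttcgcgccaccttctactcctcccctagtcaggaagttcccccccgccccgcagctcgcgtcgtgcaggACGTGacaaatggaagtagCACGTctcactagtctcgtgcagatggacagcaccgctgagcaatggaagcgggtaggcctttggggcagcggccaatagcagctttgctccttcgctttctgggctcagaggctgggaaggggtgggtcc
Slc16a1: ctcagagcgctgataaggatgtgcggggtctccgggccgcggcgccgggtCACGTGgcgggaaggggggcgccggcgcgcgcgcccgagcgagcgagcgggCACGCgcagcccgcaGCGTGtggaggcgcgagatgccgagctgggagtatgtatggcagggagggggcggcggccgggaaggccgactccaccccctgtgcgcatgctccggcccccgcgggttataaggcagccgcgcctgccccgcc
The Ldha stretch holds 5 matches, all of the ACGTG form, the Slc16a1 stretch 4, the Pgk1 stretch 2 and the Eno1 stretch 1. The stretch before the other Ldha start (chr7:46846832-46847081) holds 1 core and none of the ACGTG form. Eno1 also has other listed starts, whose stretches (chr4:150236947-150237196 and chr4:150236974-150237223) each hold 2 cores, none of the ACGTG form. These have 245 and 250 of their 250 bases in annotated exons and were not shown. GC contents of the 4 stretches shown were 67.2% (Ldha), 76.4% (Slc16a1), 62.8% (Pgk1) and 55.6% (Eno1).

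The libraries held 4595331 to 16056708 counts each (median 8628240), and levels below are CPM, counts relative to library size after TMM scaling over all 39 libraries. Summed CPM of 10 macrophage markers was 17086 to 34654 in macrophages and 1099 to 3124 in monocytes, and that of 8 classical monocyte markers was 196 to 791 and 5288 to 11837, so both labels matched their markers. Young saline monocyte replicate 4 stood apart from its group (median correlation with the others 0.948, and the smallest total), and without it 28 in place of 27 members were called in the main comparison of the cell types. Called below means a Benjamini-Hochberg adjusted p under 0.05 in edgeR's quasi-likelihood test over all genes tested.

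Macrophages of the injured lung held more transcript of most enzymes of lower glycolysis than monocytes of the naive lung, as well as more of the lactate enzymes and of the lactate transporter Slc16a1, and less of Ndrg1, Slc2a6, Hk1 and Gpi1. In saline mice with both ages averaged, 27 of 34 members were called, 17 higher and 10 lower in macrophages. These include Eno2 and Egln3, which passed the filter on low counts only through the cell type where each was high. Over all genes tested 70% were called, 35.8% higher and 34.2% lower, so a difference between these cells was common. In bulk libraries fewer cells of a type and less RNA per cell cannot be told apart. The median log2 fold change of the 34 was 0.12, against -0.00 over all genes, and the members' changes ran from -3.35 to 5.08.

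**Figure D1:**
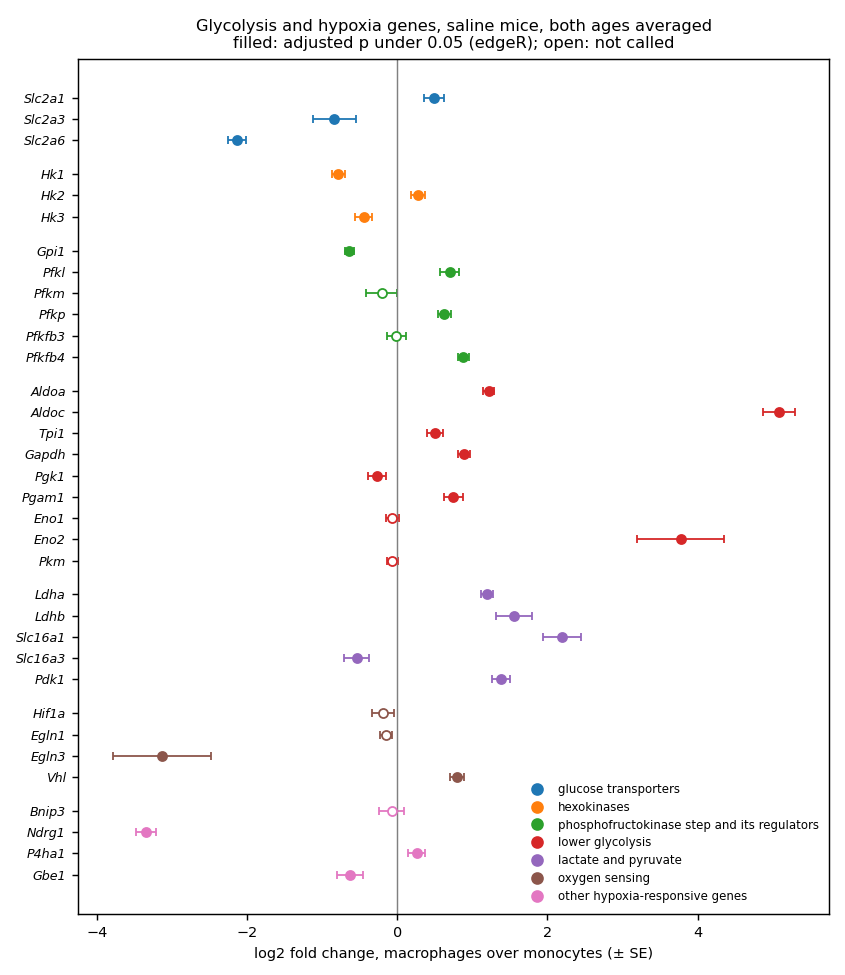
Log2 fold change (x axis, ± SE) of each of the 34 members between saline macrophages and saline monocytes, both ages averaged, grouped by role and coloured by it, with filled points for called members. Aldoc, Eno2 and Slc16a1 lie farthest to the right and Ndrg1, Egln3 and Slc2a6 farthest to the left, while Hif1a, Eno1 and Pkm lie near 0.

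The glucose transporters differed in direction. Slc2a1, the widely expressed transporter GLUT1, was 1.4 times as high in macrophages (log2 fold change 0.49 ± 0.14 SE, adjusted p = 0.00168), with overlapping libraries. Slc2a6 (ENSMUSG00000036067, chr2:27021363-27027998, GRCm38), a carrier found on internal membranes, had a lowest, median and highest level of 15.5, 24.8 and 40.9 CPM in the 19 macrophage libraries and 80.6, 113 and 159 CPM in the 20 monocyte libraries. Each macrophage library lay below each monocyte library (log2 fold change -2.14 ± 0.12, adjusted p = 8.06e-19). Slc2a3, the high-affinity carrier GLUT3, was at or under 8.37 CPM in all libraries and lower in macrophages (-0.84 ± 0.29).

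Per kilobase of exon, so that genes of different length can be compared, Slc2a1 made up 75.7% ± 3.6 (SD, n = 19) of the summed level of these 3 carriers in macrophages and 34.2% ± 7.53 (SD, n = 20) in monocytes. Slc2a6 made up 23.2% ± 3.45 and 64.5% ± 7.42. The ranges over libraries did not meet, since Slc2a1 held 69.5 to 81.0% in macrophages and 23.9 to 49.3% in monocytes. Length here and below is that of all annotated exons of a gene together, so shares and ranks depend on the annotation.

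Hexokinases trap glucose in the cell by phosphorylating it. Hk1, the form bound to mitochondria in most tissues, had 43.9, 62.3 and 74.0 CPM (lowest, median, highest) in macrophages and 80.2, 106 and 131 CPM in monocytes, with no overlap (log2 fold change -0.78 ± 0.09, adjusted p = 3.60e-10). Hk3, a form common in myeloid cells, was lower in macrophages (-0.45 ± 0.12), and the inducible Hk2 was slightly higher (0.28 ± 0.09), both with overlapping libraries. Hk2 lost its call when only library totals were used for scaling.

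Gpi1, the isomerase that follows hexokinase (ENSMUSG00000036427, chr7:34201330-34230336), was lower in each of the 19 macrophage libraries than in any monocyte library, with 276, 323 and 364 CPM against 405, 462 and 605 CPM (-0.64 ± 0.06, adjusted p = 1.34e-12). Phosphofructokinase is the committed step of the pathway, and 2 of its 3 subunits were higher in macrophages, Pfkl by 0.70 ± 0.12 and Pfkp by 0.63 ± 0.09. Pfkm, the muscle form, was near 7.22 CPM in macrophages and 8.67 CPM in monocytes (medians) and was not called. The PFKFB enzymes make and remove the sugar phosphate that activates phosphofructokinase. Pfkfb4 ranged from 176 to 238 CPM in macrophages and from 90.4 to 137 CPM in monocytes, again with no overlap (0.88 ± 0.07). Its relative Pfkfb3 was not called (-0.01 ± 0.13, adjusted p = 0.937).

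In lower glycolysis 6 of 9 enzymes were higher in macrophages and 1 was lower, where 35.8% and 34.2% of all genes were. Aldolase cleaves the sugar into trioses, and both aldolases were higher. Aldoa, the main form, had 926, 993 and 1226 CPM (lowest, median, highest) in macrophages and 346, 393 and 589.5 CPM in monocytes, and it ranked first of the 34 members per kilobase in macrophages and second to Pkm in monocytes. Aldoc (ENSMUSG00000017390, chr11:78322968-78327781), the form best known from brain, had the largest fitted difference of the members in the saline average. It had 4.21, 1.2, 4.44, 4.7 and 3.6 CPM in young saline monocytes and 4.25, 1.68, 3.22, 1.79 and 0.96 CPM in old saline monocytes. In saline macrophages it had 91.6, 82.9, 93.8, 97.1 and 113 CPM at the young age and 107, 102, 105, 114 and 86.8 CPM at the old age. Each macrophage library was thus far above each monocyte library, a 33.9-fold difference (log2 5.08 ± 0.22, adjusted p = 7.36e-23). Even so, Aldoc made up only 8.22% ± 0.937 of the aldolase level per kilobase in macrophages, against 0.651% ± 0.33 in monocytes.

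The triose enzymes moved less. Gapdh, the dehydrogenase that reduces NAD, was higher without overlap (0.89 ± 0.08), and the isomerase Tpi1 (0.51 ± 0.11) and the mutase Pgam1 (0.75 ± 0.13) were higher with overlap. Pgk1, the first ATP-yielding kinase, was lower in macrophages by a small margin (-0.27 ± 0.12, adjusted p = 0.0411). That call was lost on leaving out any 1 of 9 libraries: young saline monocyte replicates 1 and 5, old saline monocyte replicates 1, 3 and 4, young saline macrophage replicates 3 and 4, and old saline macrophage replicates 3 and 5.

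Enolase makes phosphoenolpyruvate, and Eno1 is its general form. Eno1 was not called (-0.07 ± 0.08) and neither was the pyruvate kinase Pkm (-0.06 ± 0.07), the 2 enzymes at the end of the pathway. Eno2, known as the neuronal enolase, was in every macrophage library at 0.919, 4.7 and 6.15 CPM (lowest, median, highest) and had no count in 12 of 20 monocyte libraries, where 3 counts would be 0.240 to 0.613 CPM. The highest monocyte library, young saline replicate 4, had 1.23 CPM, and it and old saline replicate 1 (0.956 CPM) lay above the lowest macrophage library. The fitted difference was 3.77 ± 0.58 on the log2 scale (adjusted p = 3.22e-07), and it rests on 30 counts in all monocytes against 662 in all macrophages. Eno2 passed the filter on low counts only through the macrophage libraries, where it is high, so its call is not read as support. Eno2 remained a minor form at 1.45% ± 0.598 of enolase per kilobase in macrophages.

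Of the 5 lactate and pyruvate members 4 were higher in macrophages, as were 35.8% of all genes, and 1 was lower. Ldha (ENSMUSG00000063229, chr7:46841475-46855627), the subunit that favours lactate production, had 389, 464 and 663 CPM in macrophages and 177, 219 and 301 CPM in monocytes, without overlap (1.20 ± 0.09, adjusted p = 1.08e-15). Ldhb, the subunit that favours pyruvate, was higher on average (1.55 ± 0.24) but spread from 7.84 to 61.0 CPM among macrophages. Its share of the lactate dehydrogenase level per kilobase was 12.6% ± 5.41 in macrophages and 12.9% ± 3.64 in monocytes, a difference smaller than the spread between libraries.

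Slc16a1 (ENSMUSG00000032902, chr3:104638668-104658462), the monocarboxylate transporter MCT1, carries lactate and pyruvate in either direction. It had 28.1, 35.9 and 49.9 CPM in macrophages and 2.39, 7.6 and 23.9 CPM in monocytes (lowest, median, highest), and no monocyte library reached the lowest macrophage library. The difference was 2.19 ± 0.25 on the log2 scale (adjusted p = 4.14e-10). Slc16a3, the exporter MCT4 of strongly glycolytic cells, went the other way (-0.54 ± 0.17, adjusted p = 0.00435). Slc16a1 supplied 34.9% ± 3.73 of the level of both transporters per kilobase in macrophages and 6.51% ± 3.08 in monocytes, and the ranges of 28.7 to 42.0% and 1.99 to 13.5% did not meet. Pdk1, a kinase that shuts pyruvate out of the mitochondrial dehydrogenase, was 2.6 times as high in macrophages (1.38 ± 0.12).

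Among the oxygen sensors, Hif1a itself was not called, with a median of 233 CPM in macrophages and 239 CPM in monocytes (-0.19 ± 0.15, adjusted p = 0.243). Transcript does not report the protein, which is known to be set by its decay. Vhl, the adaptor that marks HIF for destruction, was higher in macrophages (0.79 ± 0.10), and the main hydroxylase Egln1 was not called (-0.15 ± 0.08). Egln3, a hydroxylase that is itself a HIF target, had 0.534, 2.98 and 6.05 CPM in monocytes and was without a count in 11 of 19 macrophage libraries, where 3 counts would be 0.188 to 0.508 CPM. Its highest macrophage library had 1.27 CPM, within the monocyte range (-3.13 ± 0.65, adjusted p = 5.79e-05). Egln3 passed the filter on low counts only through the monocyte libraries, where it is high, so its call is not read as support.

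The 4 other hypoxia-responsive genes did not move together. Ndrg1 (ENSMUSG00000005125, chr15:66929318-66969640), a gene induced by hypoxia and other stresses, had the most negative fitted difference of the members in the saline average, while Egln3 did in the young saline and young ISRIB pairs taken alone (-3.54 and -4.13, against -3.05 and -3.26 for Ndrg1). It had 4.55, 9.8 and 16.2 CPM in macrophages and 81.7, 102 and 139 CPM in monocytes (lowest, median, highest), with a wide gap between the ranges (-3.35 ± 0.13, adjusted p = 7.17e-24). The glycogen branching enzyme Gbe1 was also lower (-0.63 ± 0.17), the collagen prolyl hydroxylase P4ha1 slightly higher (0.26 ± 0.11), and the mitophagy receptor Bnip3 not called (-0.08 ± 0.16). P4ha1 lost its call on leaving out any 1 of 8 libraries, namely young saline monocyte replicates 4 and 5, old saline monocyte replicates 1, 2 and 5, young saline macrophage replicate 5 and old saline macrophage replicates 1 and 4.

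**Figure D2:**
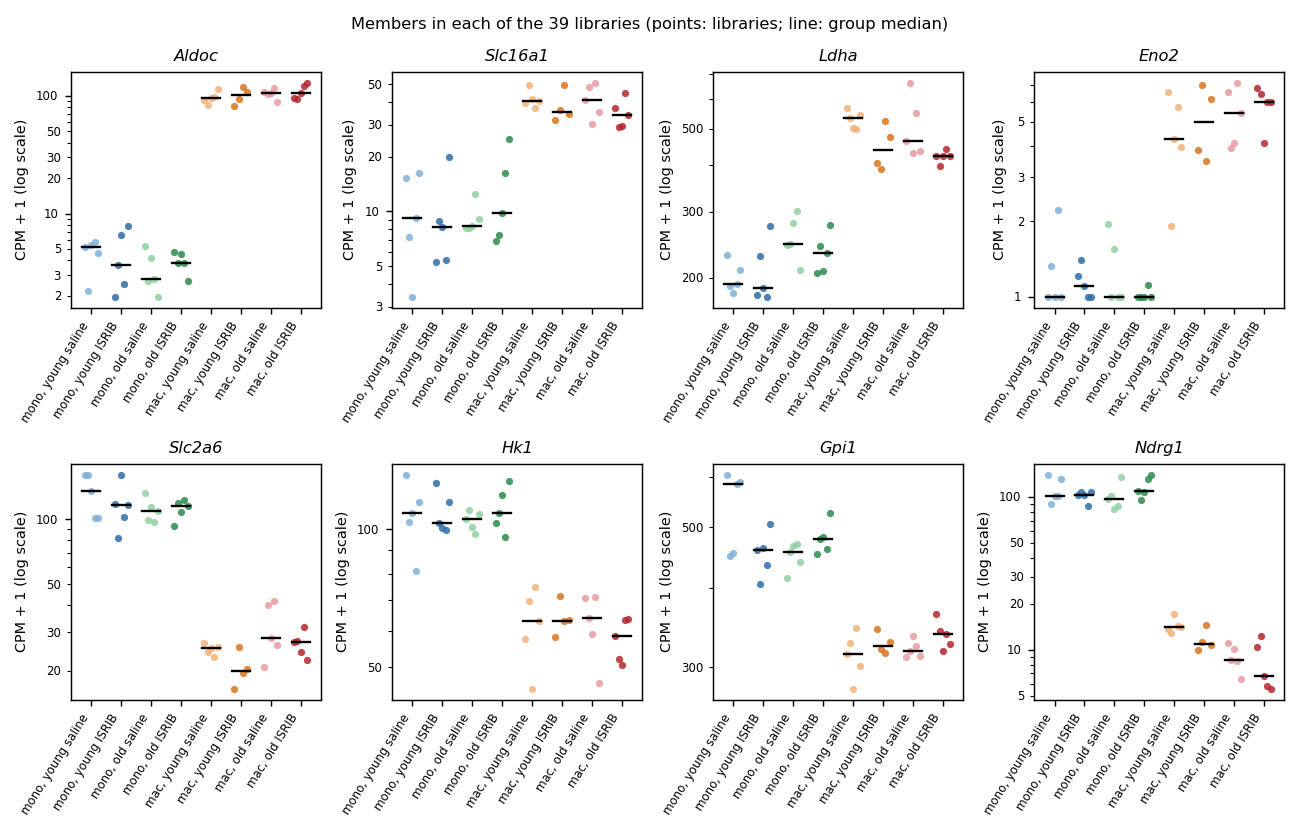
CPM + 1 on a log scale for 8 members in each library of the 8 groups, with a line at each group median (mono, monocytes of naive mice; mac, macrophages of bleomycin-treated mice). In Aldoc, Slc16a1 and Ldha each macrophage library is above each monocyte library, in Slc2a6, Hk1, Gpi1 and Ndrg1 each is below, and in Eno2 2 monocyte libraries lie above the lowest macrophage library.

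The same comparison was made at each age and treatment in turn, on groups of libraries that the 4 comparisons do not share. All 4 were read from the same fit of the 39 libraries and share its spread, so their calls are not independent. Called members were 24 of 34 in young saline mice, 22 in young ISRIB mice, 23 in old saline mice and 23 in old ISRIB mice, against 60%, 57.3%, 57% and 59.4% of all genes. In each of the 4, 12 members were called higher in macrophages: Aldoa, Aldoc, Eno2, Gapdh, Ldha, Pdk1, Pfkfb4, Pfkl, Pgam1, Slc16a1, Tpi1 and Vhl. Of all genes 22% did so. Those called lower in each of the 4 were Egln3, Gpi1, Hk1, Ndrg1 and Slc2a6, 5 members, against 19.7% of all genes. Bnip3, Hif1a, Pfkfb3, Pfkm and Pkm were called in none of the 4, as were 22.9% of genes, and no member was called in opposite directions. Eno2 and Egln3 passed the filter only through the cell type where each was high, so their calls are not read as support. Of the 12, the calls of Pfkl, Tpi1, Vhl and Pgam1 were lost under some alternatives. Among 10 processing settings Pfkl and Vhl each lost theirs in 7 in the old ISRIB pair (adjusted p up to 0.0776 and 0.357). Tpi1 lost its call in 3 there and in 4 in the old saline pair (up to 0.276 and 0.229), and Pfkl, Tpi1 and Vhl in 1 each in the young ISRIB pair. In the old ISRIB pair Pfkl (edgeR adjusted p = 0.0494) lost its call on leaving out any of 24 of the 39 libraries, with an adjusted p of 0.127 without old ISRIB monocyte replicate 3. Vhl (0.046) lost it there without old ISRIB monocyte replicate 2, 3 or 4 or old ISRIB macrophage replicate 1, 2 or 3, and Tpi1 (0.0343) without replicate 3, 4 or 5 of either group. In the young pairs Pfkl lost its call without young saline monocyte replicate 5, young saline macrophage replicate 4, young ISRIB monocyte replicate 1, 2, 3 or 4, or young ISRIB macrophage replicate 2 or 4. Pgam1 lost it in the young ISRIB pair without monocyte replicate 3, and Tpi1 in the old saline pair without monocyte replicate 1, 2 or 5 or macrophage replicate 2 or 4.

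All 19 macrophage libraries lay above all 20 monocyte libraries in 6 members (Pfkfb4, Aldoa, Aldoc, Gapdh, Ldha and Slc16a1) and below them in 4 (Slc2a6, Hk1, Gpi1 and Ndrg1). The shares of all tested genes that did so were 11.6% and 9.41%. Summed CPM of 10 epithelial markers was 52.8 to 132 in macrophages and 3.17 to 84.2 in monocytes, and that of 10 neutrophil markers 80.6 to 160.2 and 458 to 778. In macrophages the neutrophil marker Ly6g was at 0 in every library and no epithelial marker was at 0 throughout a group. In each macrophage group 1 to 3 of the 10 neutrophil markers were at 0 throughout and 4 to 6 had a mean under 1 CPM. In monocyte groups 3 to 5 neutrophil markers had a mean under 1 CPM, so those sums rest on part of the list. Epithelial markers with a mean under 1 CPM were 3 to 4 of 10 in macrophage groups and 6 to 9 in monocyte groups. The part of these cells in the differences was not tested.

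Genes around the pathway were read from 5 lists, in which 50 of 64 tested genes were called (78.1%, against 70% of all genes), 34 higher and 16 lower in macrophages (35.8% and 34.2% of all genes). Of 21 tested other HIF genes and targets, 10 were higher and 8 lower in macrophages (median log2 0.23). They included Epas1, which encodes another HIF alpha subunit (3.59 ± 0.21), the collagen lysyl hydroxylase Plod1 (1.47 ± 0.08) and the stress-induced inhibitor of mTOR signalling Ddit4 (-5.80 ± 0.35). Among 12 genes of pyruvate entry to mitochondria 8 were higher and 1 lower. The pyruvate dehydrogenase subunit Pdha1 was lower (-0.79 ± 0.07), and Dld, a subunit shared by several dehydrogenases, was higher (0.60 ± 0.09).

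The remaining lists are read against the same shares of all genes, 35.8% higher and 34.2% lower. Of 8 pentose phosphate genes 4 were higher and 1 lower, and the lower one was G6pdx, the entry enzyme (-0.73 ± 0.07). Rpia (0.53 ± 0.08) and Pgd (0.35 ± 0.08) were among the higher. In the glycogen list 6 of 10 were higher and 2 lower, and among 13 other glycolytic isozymes and regulators 6 were higher and 4 lower. Tigar, which removes the activator of phosphofructokinase, was higher (1.44 ± 0.15), while the muscle mutase Pgam2 (-2.88 ± 0.32) and the transporter Slc16a7 (-1.08 ± 0.13) were lower.

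In macrophages the fitted levels of most members were below saline with ISRIB by small margins. The enolase Eno1 passed the test, and the phosphofructokinase Pfkp lay just outside it. With both ages averaged, Eno1 was lower with ISRIB (log2 fold change -0.36 ± 0.08, edgeR adjusted p = 0.0391) and no other of the 33 tested members was called, against 0.830% of all genes called. At an unadjusted p under 0.05, there were 15 members, all with a fitted change below 0, whereas 8.15% of all genes were lower by that measure and 8.44% higher. The median log2 fold change of the 33 was -0.18, against -0.00 for all genes, and 25 of the 33 were below 0, against 50.8% of all genes.

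Eno1 (ENSMUSG00000063524, chr4:150236721-150248879) had 422, 407, 394, 404 and 404 CPM in young saline macrophages and 265, 269, 391 and 326 CPM in young ISRIB macrophages. In old macrophages it had 351, 434, 318, 458 and 273 CPM with saline and 275, 275, 281, 301 and 303 CPM with ISRIB. All young ISRIB libraries lay below the young saline libraries, replicate 3 by the least, whereas in old mice saline replicate 5 fell below all ISRIB libraries. The call was lost on leaving out 14 of the 19 libraries one at a time, with 0.113 as the largest adjusted p in edgeR. Leaving out young ISRIB replicate 3 gave 7 called members, and leaving out old saline replicate 3 or 5 gave 8, all lower with ISRIB. Without old ISRIB replicate 4 there were 2. Shares of all genes called in these fits are not given here, so the counts do not set the members apart from all genes. Eno1 was kept without young saline replicate 5, young ISRIB replicate 3, old saline replicates 3 and 5, or old ISRIB replicate 4. When GC content and length entered as offsets the adjusted p was 0.0712.

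Ldha, the lactate-forming subunit, had 566, 533, 502, 497 and 542 CPM in young saline and 404, 389, 523 and 474 CPM in young ISRIB macrophages, and 464, 663, 430.3, 551 and 434 CPM in old saline and 422, 398, 422, 441 and 422 CPM in old ISRIB macrophages. In both ages the ISRIB libraries sat at the lower end, but replicate 3 of young ISRIB lay with saline, and replicates 3 and 5 of old saline with ISRIB (-0.25 ± 0.07, adjusted p = 0.0808). Ldhb showed the same libraries more sharply. It had 59.6, 54.2, 51.6, 60.9 and 43.2 CPM in young saline, 16.5, 26.8, 56.8 and 38.2 CPM in young ISRIB, 40.0, 57.0, 7.84, 55.4 and 18.0 CPM in old saline and 25.2, 10.006, 9.33, 24.5 and 12.4 CPM in old ISRIB macrophages. Its log2 fold change of -0.88 ± 0.28 did not pass the test (adjusted p = 0.102).

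Pfkp, the platelet form of phosphofructokinase, had 219, 234, 219.7, 203 and 211 CPM in young saline and 183, 168, 203 and 159.7 CPM in young ISRIB macrophages. In old macrophages it had 199, 209.6, 181, 182 and 165 CPM with saline and 144, 167, 174, 154 and 171 CPM with ISRIB. The young groups overlapped only through ISRIB replicate 3, and the old groups overlapped (-0.25 ± 0.06, adjusted p = 0.051). Pfkp was called in 7 of 10 other settings (lowest adjusted p = 0.012, with DESeq2; highest 0.223), and Eno1 kept its call in 7 of the same 10. The exporter Slc16a3 had 115, 108, 68.3, 103 and 100.1 CPM in young saline, 70.6, 79.7, 80.6 and 59.3 CPM in young ISRIB, 86.1, 119, 80.4, 124 and 71.8 CPM in old saline and 73.7, 65.1, 61.7, 85.9 and 78.7 CPM in old ISRIB macrophages, with overlap at both ages (-0.42 ± 0.11, adjusted p = 0.053). It was called in 3 of the 10 settings. Pgk1 (-0.35 ± 0.10, adjusted p = 0.0871) and Pkm (-0.19 ± 0.06, adjusted p = 0.0958) were not called by edgeR either.

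**Figure D3:**
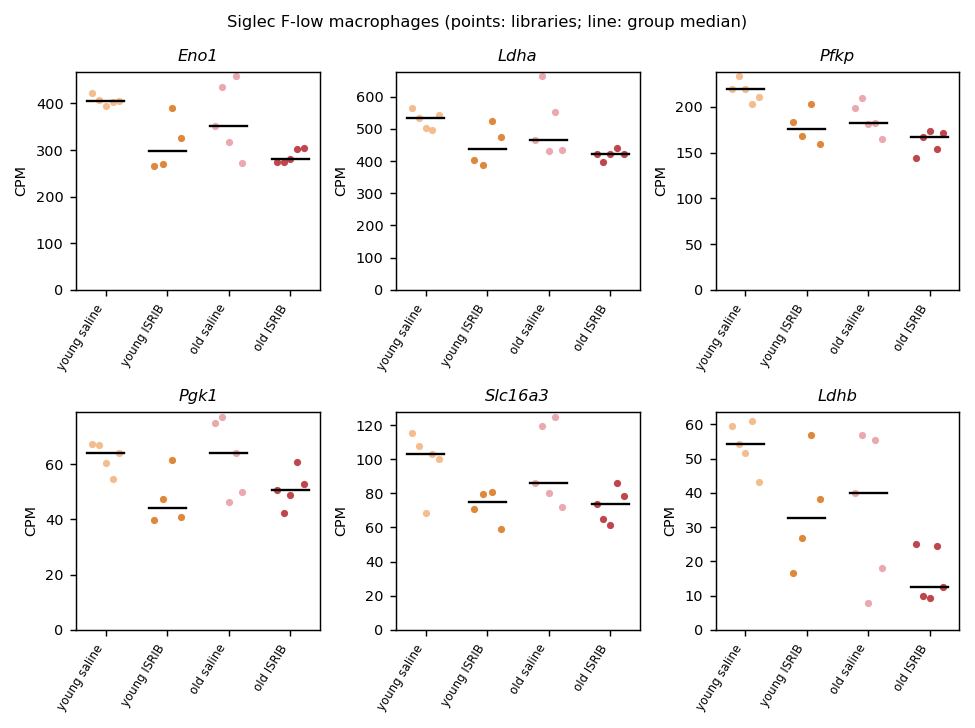
CPM of 6 members in each macrophage library of the 4 groups, with a line at each group median. The ISRIB medians are below the saline medians at both ages in all 6, and young ISRIB replicate 3 (the highest point of its group in Eno1, Ldha, Pfkp, Pgk1, Slc16a3 and Ldhb) lies within or close to the saline points.

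At each age alone no member was called by edgeR, DESeq2 or limma voom, and no gene of the 12171 tested was called by edgeR (0%). Without young ISRIB replicate 3, 3 members were called in young macrophages, and the share of all genes called in that fit is not given here. Unadjusted p fell under 0.05 for 11 members in old and 8 in young macrophages, of which 11 and 6 had a change below 0, against 5.14% and 5.51% of all genes lower by that measure. The fitted change was below 0 at both ages in 21 of 33 members, as in 30.4% of all genes, above 0 at both in 5 and of opposite sign in 7. Eno1, Ldha, Pfkp, Pgk1 and Slc16a3 had an unadjusted p under 0.05 in edgeR and a change below 0 at both ages. These were 5 of 33 members, against 0.961% of all genes. The 2 ages share no library, but their tests come from the same fit and share its spread. The 5 members also vary together between libraries, since young ISRIB replicate 3 was the highest of its group in each, so they are not independent. The fitted change of Hif1a was -0.23 ± 0.12 in old and -0.22 ± 0.13 in young macrophages, neither called.

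**Figure D4:**
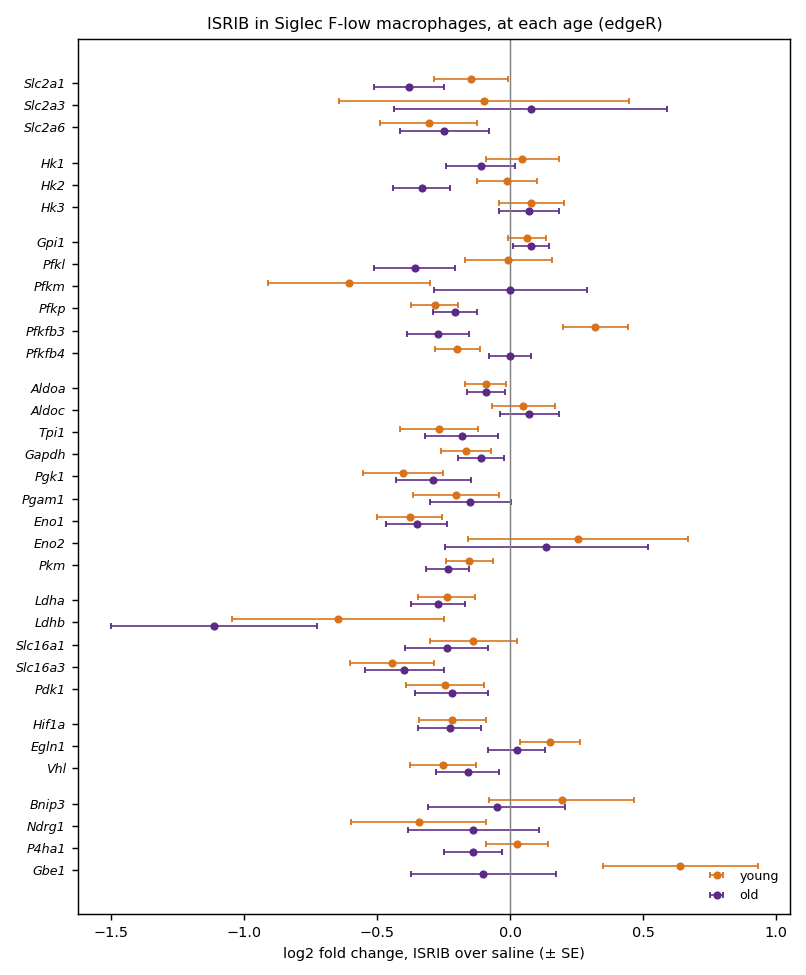
Log2 fold change (x axis, ± SE) of 33 members between ISRIB and saline macrophages, in orange for young and purple for old mice. Most points lie to the left of 0 at both ages, Ldhb farthest, and Gbe1 and Pfkfb3 lie on opposite sides of 0 in the 2 ages.

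No member passed the test for a different ISRIB effect at the 2 ages (edgeR, 0 of 33 called and 0% of all genes; 1 at an unadjusted p under 0.05; DESeq2 and limma voom, 0). The smallest p belonged to Pfkfb3, whose change was 0.32 ± 0.12 in young and -0.27 ± 0.12 in old macrophages. The difference of -0.59 ± 0.17 had an unadjusted p of 0.00174 and an adjusted p of 0.765.

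Markers of other cells moved with the same libraries. Summed CPM of 10 T and NK cell markers was 47.8, 31.8, 58.7, 43.5 and 64.0 in young saline and 135, 111, 37.9 and 82.2 in young ISRIB macrophages. In old macrophages the sums were 66.2, 34.5, 191, 33.8 and 136 with saline and 140.0, 194, 233, 114 and 156 with ISRIB. Old saline replicates 3 and 5, low in Ldha and Ldhb, were the high ones of their group, and young ISRIB replicate 3, high in both, was the low one. Classical monocyte markers ran the other way, at 406 to 604 in young saline, 299.7 to 431 in young ISRIB, 220.0 to 791 in old saline and 196 to 353 in old ISRIB macrophages. Nonclassical monocyte markers (8 genes) summed to 1161 to 1256 in young saline, 986 to 1225 in young ISRIB, 988 to 1134 in old saline and 854 to 985 CPM in old ISRIB macrophages, without overlap in old mice. Mature alveolar macrophage markers (9 genes) summed to 4961 to 9101 CPM in old saline and 7088 to 14205 CPM in old ISRIB macrophages, and 10 B cell markers to 238 to 513 and 345 to 622. The NK cell marker Ncr1 was at 0 in both young groups and no other gene of these lists was at 0 throughout a macrophage group. Of the 10 T and NK cell markers, 9 had a mean under 1 CPM in young saline and 8 in young ISRIB macrophages. In old macrophages these were 4 with saline and 1 with ISRIB. The young T and NK sums thus rest on few genes of the list. The part of these cells in the ISRIB result was not tested.

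No gene of the lists around the pathway was called with ISRIB in macrophages at both ages averaged. This held for 21 other HIF genes, 8 pentose phosphate genes, 9 glycogen genes, 12 genes of pyruvate entry and 12 other isozymes, whose medians lay between -0.09 and 0.02 on the log2 scale.

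Over saline and ISRIB averaged, 1 of 33 tested members was called with age in macrophages, against 4.86% of all genes. A count this small does not set the members apart from all genes. The called member was Ndrg1, lower in old mice (-0.66 ± 0.18, edgeR adjusted p = 0.0276). It had 12.7, 11.9, 16.2, 13.2 and 13.1 CPM in young saline and 10, 7.53, 9.07, 7.44 and 5.49 CPM in old saline macrophages. With ISRIB it had 8.98, 10.2, 13.5 and 9.8 CPM in young and 9.37, 11.3, 5.72, 4.84 and 4.55 CPM in old macrophages. The saline groups did not overlap, and the ISRIB groups did. The call was lost without young saline replicate 3, young ISRIB replicate 3, old saline replicate 5, or old ISRIB replicate 3, 4 or 5. Fitted within saline the change was -0.76 ± 0.24 (adjusted p = 0.133) and within ISRIB -0.56 ± 0.26 (adjusted p = 0.375), both by edgeR.

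No other of the 33 members passed with age. Within saline or ISRIB alone edgeR, DESeq2 and limma voom each called 0, where edgeR called 1.16% and 0.937% of all genes. At an unadjusted p under 0.05 there were 7 members in saline and 4 in ISRIB, against 12.7% and 12.2% of all genes. Ldhb had the widest fitted change (-0.84 ± 0.28, adjusted p = 0.083), and those of Slc2a6 (0.36 ± 0.12) and Pfkl (0.29 ± 0.11) were above 0, none called. Marker sums also moved with age. In old and young saline macrophages B cell sums were 238 to 513 and 136 to 187 CPM, without overlap. Endothelial sums were 8.41 to 20.2 and 2.23 to 8.3 CPM, also without overlap. Of the 10 B cell markers 2 in old and 7 in young saline macrophages had a mean under 1 CPM. Of the 10 endothelial markers 3 and 9 did, so the young sums rest on few genes. Nonclassical monocyte sums were 988 to 1134 and 1161 to 1256 CPM, lower in old mice without overlap. T and NK cell sums were 33.8 to 191 and 31.8 to 64.0 CPM and overlapped. The part of these cells in the age values was not tested.

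Around the pathway 4 of 62 tested genes were called with age in macrophages (6.45%), near the 4.86% of all genes. Pdk4, another kinase that inhibits pyruvate dehydrogenase, was higher in old mice (2.46 ± 0.46, edgeR adjusted p = 0.00182), and its relative Pdk3 was lower (-0.41 ± 0.11). Higher too were Ddit4 (1.55 ± 0.44), 1 of 21 tested HIF genes, and the glycogen phosphorylase Pygl (0.30 ± 0.07), 1 of 9 glycogen genes.

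In monocytes of naive mice no member was called with age or ISRIB in any of 7 contrasts by edgeR, DESeq2 or limma voom. In edgeR 0.123% of all genes were called with age over both treatments, 0.0247% with age in saline, and 0% in the other contrasts. At an unadjusted p under 0.05 there were 2 members with age over both treatments (8.24% of all genes), 3 in saline (8.81%) and 1 in ISRIB (6.60%). With ISRIB there were 4 over both ages (7.49%), 1 in old mice (7.54%), 3 in young mice (6.65%) and 3 for the difference between the ages (7.11%). Counts this small do not set the members apart from all genes. The widest fitted change with ISRIB was that of Slc16a3, the lactate exporter, in old mice. Old saline monocytes had 154, 87.9, 126, 128 and 127 CPM and old ISRIB monocytes 135, 164, 223, 315 and 466 CPM, so 4 of 5 ISRIB libraries were above all saline libraries and replicates 4 and 5 farthest. In young monocytes the values were 226, 190.2, 142, 129 and 119 CPM with saline and 117, 95.6, 225, 135 and 147 CPM with ISRIB and overlapped. The old change was 1.05 ± 0.27 (unadjusted p = 8.47e-04, adjusted p = 0.439) and the young -0.16 ± 0.27. Their difference of 1.21 ± 0.38 did not pass either (adjusted p = 0.50). Old ISRIB replicate 5 also had an epithelial marker sum of 84.2 CPM, against 7.96 to 13.6 in the rest of its group, and its part was not tested.

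Pdk1 had the widest fitted change with ISRIB when both ages were averaged, and it was not called (0.46 ± 0.13, unadjusted p = 0.00205, adjusted p = 0.568). Young monocytes had 14.2, 20.7, 15.956, 11.2 and 17.9 CPM with saline and 23.6, 20.4, 25.039, 30.5 and 24.0 CPM with ISRIB, which overlapped at a single library of each. The fitted age change of Ldha in saline monocytes was 0.37 ± 0.13 (adjusted p = 0.37), also not called. Classical monocyte marker sums ran from 5288 to 11837 CPM and nonclassical ones from 2906 to 8218 CPM over monocyte libraries.

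**Figure D5:**
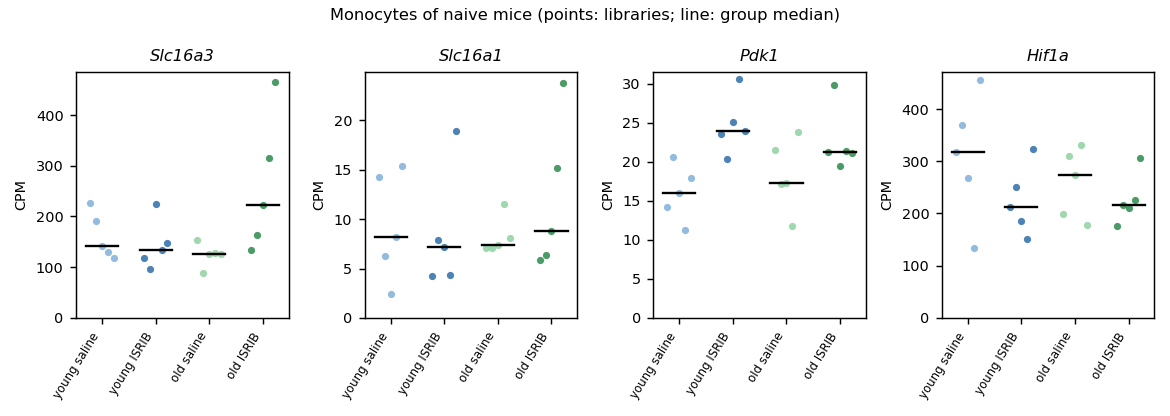
CPM of 4 members in each monocyte library of the 4 groups, with a line at each group median. Old ISRIB replicates 4 and 5 stand highest in Slc16a3, Pdk1 is mostly higher with ISRIB in young mice, and the groups overlap in Slc16a1 and Hif1a.

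No member passed the test for a different age effect in macrophages and monocytes of saline mice (edgeR, 0 of 34 called against 0.250% of all genes; DESeq2 and limma voom, 0). At an unadjusted p under 0.05 there were 5 members, against 10.9% of all genes, with macrophage minus monocyte differences above 0 in 3 (Slc2a6, Gpi1 and P4ha1) and below 0 in 2 (Ndrg1, -0.60 ± 0.25, and Ldha, -0.41 ± 0.17).

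Some members share sequence with other genes, so their counts are less certain. At 90% identity over at least 200 bases, Gapdh had 180 near copies, Ldha 13, Pkm 9, Eno1 7, Aldoa and Bnip3 6 each, and Pgk1 4. Of the Gapdh copies 162 were among the genes counted here, and 154 of those were pseudogenes. Exons of 11 members overlap exons on the opposite strand, Pfkp those of Pitrm1 by 748 bases, and no strand setting is given in the sources used here.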

How the data were processed

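The deposited table holds raw counts, whole and unscaled, with a row for each Ensembl gene and a column for each library. The submitters' processing notes list the genome build mm10, bcl2fastq 2.19.1, FastQC, Trimmomatic 0.36, STAR 2.6.0 and HTSeq 0.11.2, without settings. Per the labels' protocols, libraries were made from 3 ng of RNA with polyA selection. Of 43430 gene IDs, 42546 had a symbol.

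Genes passed edgeR's filterByExpr (minimum count 10, minimum total 15) and were tested with edgeR 4.0.16 (quasi-likelihood F test, TMM scaling, Benjamini-Hochberg over all genes tested, R 4.3.3) in 3 fits: all 39 libraries (13587 genes), 19 macrophage libraries (12171) and 20 monocyte libraries (12170). Depth was 4595331 to 16056708 counts per library. CPM used TMM sizes over all 39 libraries, and levels per kilobase used the length of all annotated exons of a gene together. That length can exceed the length of the transcript that was counted. Standard errors were the log2 fold change divided by the square root of F. On simulated data 64 to 70% of changes of 0.5 on the log2 scale and 98% of changes of 1 were recovered. Only comparisons averaged over ages or treatments were simulated, with changes placed in genes of higher counts and spread taken from its trend. Recovery in the other comparisons, or for members with few counts, was not simulated. The 76 pairs of libraries within groups all differed by more than sampling noise (chi-square per degree of freedom at least 7.26).

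Members were all open to naming, and genes of other lists were named up to 3 per list by smallest adjusted p. Members and lists were chosen with earlier results of these data known. Alternatives were RLE, library totals and upper quartile scaling, no filter, DESeq2 1.42.0, limma 3.58.1 voom, offsets for GC content and length, a replicate block, other sets of libraries in the fit, and each library left out. Near copies were found with BLAST+ 2.17.0, and promoters came from RefSeq.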

Additional observations from a re-analysis of the deposited data

Results flagged for a closer look

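In 15 of 272 checks of a member in a group, 1 library stood apart from the rest by Dixon's test, and chance alone marks about 1 group in 20. Values are CPM, followed by the nearest library of the same group.

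Young ISRIB monocyte replicate 5 was the highest of its group in 4 members: Pfkl at 85.4 (next 57.8), Gapdh at 268 (next 229.6), Eno1 at 437 (next 349.8) and Slc16a1 at 18.9 (next 7.86). In the same group replicate 3 was highest in Pfkm at 13.2 (next 8.68) and replicate 4 lowest in Ndrg1 at 86.2 (next 102). Young saline monocyte replicate 4, the library with the smallest total, was highest in Eno2 at 1.23 (next 0.328) and lowest in Egln1 at 44.2 (next 66.8).

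In old monocytes, saline replicate 4 was highest in Slc16a1 at 11.5 (next 8.09), and ISRIB replicate 2 was highest in Pdk1 at 29.8 (next 21.3). Old ISRIB monocyte replicate 4 was the library of its group with a count of Eno2, at 0.112 (next 0).

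In young saline macrophages, replicate 3 was highest in Pfkfb4 at 238 (next 225) and lowest in Pkm at 794 (next 876). In young ISRIB macrophages, replicate 1 was lowest in Pgam1 at 28.03 (next 38.1), and replicate 2 was the library with a count of Egln3, at 0.479 (next 0).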

How the results depend on the processing

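No called member reversed its direction under any alternative that was run. Numbers of called members below stand without the share of all genes called in the same setting. They therefore do not set the members apart from all genes. In the main comparison of macrophages with monocytes the number of called members was 26 or 27 under the other settings and 25 to 28 when 1 library was left out. With ISRIB in macrophages, ages averaged, 1 member was called in the main test. The number was 0 with all 39 libraries in one fit, 2 with upper quartile scaling or limma voom, 6 with DESeq2 and 7 without the filter, all lower, and 0 to 8 when 1 library was left out; the cause was not tested. Without the filter there were 2 members at the old age and 2 at the young age, all lower, and at the young age 0 to 3 when 1 library was left out.

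With age in macrophages, 3 members were called without the filter over both treatments (1 higher and 2 lower, against 1), 1 higher in saline and 1 lower in ISRIB, and 0 to 2 over both treatments when 1 library was left out. With ISRIB in old monocytes 1 member, higher, was called without the filter and 1 with all 39 libraries in one fit. Library totals moved the median of all genes to -0.11 in the young ISRIB and -0.13 in the old saline comparison of the cell types, from -0.01 and 0.00.

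Correlations of deviations showed no clear pairing of libraries by replicate number, though they cannot exclude it. Same-numbered libraries had a median of 0.0038 in macrophages and -0.0142 in monocytes, and differently numbered ones 0.0015 and -0.0009. In macrophages 6 of 19 libraries correlated best with their own number, and in monocytes 5 of 20. With the replicate block 3 members were called with ISRIB in macrophages and 1, higher, with age in saline macrophages. With GC and length offsets and the block these were 2 and 1. The block gave 26 called members in the main comparison of the cell types.

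Depth limits Eno2 in monocytes and Egln3 in macrophages, which most libraries of those cells did not count.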
